A study of Mus musculus with 8 samples.

Results

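Peaks that were called after doxycycline in both genotypes, and in neither without it, were examined in DNA-RNA immunoprecipitation sequencing (DRIP-seq) of mouse embryonic fibroblasts (MEFs). Overlapping peaks of the 4 DRIP-seq lists were merged into 194961 union regions. The regions described here were chosen by their pattern over these lists: each overlapped a peak of GFP DOX and a peak of Cre DOX and no peak of GFP mock or Cre mock. There were 4474 such regions, 2.29% of all union regions, and they are called DOX-only regions, or members of this set, below. The presence of a peak was what selected them, so their number and their peak values are given as a description.

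All cells were Rtel1F/F;WT RNH1-GFP MEFs, which carry floxed *Rtel1* alleles and a doxycycline-inducible GFP fusion of human wild-type RNaseH1. They were infected with adenovirus expressing GFP, which leaves *Rtel1* in place (GFP), or Cre-GFP, which removes it (Cre). After 48 h they received 2 µg/ml doxycycline (DOX) or mock treatment and were collected 48 h later. The 3 immunoprecipitations of each condition were pooled into 1 library, so every group is a single library and no difference between groups can be set against replicate error. The 4 input libraries were not analysed here. A peak list holds no read totals and the depth of the libraries is therefore unknown. Peak numbers ranged from 60219 in GFP DOX to 105081 in Cre DOX. Intervals on shares are exact (Clopper-Pearson) 95% intervals and cover counting error only. *Rtel1* had no peak in either GFP list, 2 in Cre mock and 1 in Cre DOX, and *Rnaseh1* had none. *Bcl6* had 1 peak, in Cre DOX, and *Actb* had 1 in each list. None of these 4 genes held a DOX-only region. All 10 fibroblast, 4 immune, 3 endothelial and 3 epithelial marker genes also lacked one, and a peak is in any case not a level of expression.

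R-loops are structures in which RNA pairs with one DNA strand and displaces the other. RNaseH1 degrades the RNA strand of such hybrids, and its overexpression is used to remove them. RTEL1 is a helicase that unwinds telomeric loops and G-quadruplexes (G4s), four-stranded structures of guanine-rich DNA. The study proposes that it also counteracts R-loops that hold G4s, by a mechanism not yet defined. LINE-1 elements are autonomous retrotransposons of the mouse genome. A full-length element carries a promoter and 2 reading frames: ORF1, for an RNA-binding protein, and ORF2, for an endonuclease and reverse transcriptase. Most genomic copies are truncated at the 5′ end, so that the 3′ part of the element is present in more copies than the 5′ part.

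Sequences at the strongest DOX-only regions are shown first. Each region was ranked by the lower of its percentile ranks in the 2 lists. The 200 bases are those around the centre of the overlap of both peaks, written 5′ to 3′ on the plus strand of mm10. A window can run past the ends of its region. Windows over annotated exons or over the untranslated ends of LINE-1 were passed over. The first group holds the highest-ranked windows outside promoters.
Region ranked 1, chr9:88508886-88509085: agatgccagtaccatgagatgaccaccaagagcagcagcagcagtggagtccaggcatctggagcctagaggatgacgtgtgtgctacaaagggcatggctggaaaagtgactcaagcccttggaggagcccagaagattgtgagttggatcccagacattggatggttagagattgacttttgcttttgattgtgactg
Region ranked 2, chr10:3114845-3115044: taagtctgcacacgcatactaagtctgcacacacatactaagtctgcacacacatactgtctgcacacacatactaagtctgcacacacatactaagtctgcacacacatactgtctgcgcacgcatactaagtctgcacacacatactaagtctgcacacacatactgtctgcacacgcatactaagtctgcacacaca
Region ranked 3, chr15:33742160-33742359: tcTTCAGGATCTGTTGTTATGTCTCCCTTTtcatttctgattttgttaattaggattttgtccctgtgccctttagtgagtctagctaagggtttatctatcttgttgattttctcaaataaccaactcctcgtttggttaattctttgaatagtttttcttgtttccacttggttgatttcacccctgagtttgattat
Region ranked 4, chr5:70005026-70005225: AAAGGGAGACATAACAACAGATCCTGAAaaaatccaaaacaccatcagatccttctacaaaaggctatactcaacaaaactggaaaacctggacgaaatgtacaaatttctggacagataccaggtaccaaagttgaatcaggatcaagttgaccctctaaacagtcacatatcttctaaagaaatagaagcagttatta
The windows ranked 3 and 4 were LINE-1 sequence throughout. The former aligned to bases 1039 to 1238 of ORF2 on the opposite strand, and the latter to bases 1209 to 1408 on the plus strand. The capitals in both mark a stretch of 28 bases, ORF2 bases 1209 to 1236, that they share in opposite orientation. In both windows this stretch lies in flanking sequence, before the first base of the region (33742201 on chromosome 15 and 70005066 on chromosome 5). At 80% identity or more over at least 100 bases, the window ranked 3 had 31865 alignments in the genome and that ranked 4 had 28029. The window ranked 1 did not align to LINE-1 and had 3053 alignments in the genome. The window ranked 2 was a short tandem repeat with 187 alignments. All 4 windows were thus repeated sequence, and the treatment of reads that match several copies bears on them. The command in the methods sets no option for such reads. It also names narrow peaks whereas the deposited lists are broad, so how such reads were treated in these lists is unknown.

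The second group holds the highest-ranked windows in promoters of protein-coding genes, a promoter being the 1 kb before and the 1 kb after a start site of any transcript.
Promoter of *Hint1*, chr11:54865473-54865672: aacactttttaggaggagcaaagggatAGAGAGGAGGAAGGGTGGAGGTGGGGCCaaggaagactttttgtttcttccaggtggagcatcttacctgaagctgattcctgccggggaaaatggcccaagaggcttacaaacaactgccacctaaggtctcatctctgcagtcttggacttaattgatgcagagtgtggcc
Promoter of *Gm13283*, chr4:88759693-88759892: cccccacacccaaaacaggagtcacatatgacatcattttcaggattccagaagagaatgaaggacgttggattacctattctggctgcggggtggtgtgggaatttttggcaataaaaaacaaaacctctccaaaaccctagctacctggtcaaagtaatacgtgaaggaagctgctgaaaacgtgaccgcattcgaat
Promoter of *Wdhd1*, chr14:47257109-47257308: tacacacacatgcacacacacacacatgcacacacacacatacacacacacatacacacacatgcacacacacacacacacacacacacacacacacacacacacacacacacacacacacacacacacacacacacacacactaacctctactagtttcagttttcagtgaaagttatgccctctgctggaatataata
Promoter of *Srcap*, chr7:127513388-127513587: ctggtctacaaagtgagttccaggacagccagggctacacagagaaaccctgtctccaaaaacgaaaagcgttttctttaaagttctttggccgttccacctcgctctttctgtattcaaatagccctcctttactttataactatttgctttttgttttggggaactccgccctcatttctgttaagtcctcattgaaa
The capitals in the *Hint1* window mark 28 bases of a predicted G4. The other promoter windows held none. The *Wdhd1* window was a long run of CA repeats with 147119 alignments and the *Gm13283* window had 15, whereas the *Hint1* and *Srcap* windows aligned only to themselves. None of these windows aligned to LINE-1. The centre of the window was 810 bp from the nearest start site of *Hint1*, 326 bp for *Gm13283*, 948 bp for *Wdhd1* and 470 bp for *Srcap*.

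The overlap of the doxycycline lists outside the mock lists was first set beside the reverse pattern. Of the 17631 GFP DOX regions absent from both mock lists, 25.4% (24.7 to 26.0) were also in Cre DOX. Of the 53038 Cre DOX regions absent from both mock lists, 8.44% (8.20 to 8.68) were also in GFP DOX. Regions with a peak in both mock lists and in neither doxycycline list, called mock-only regions, were more numerous. There were 5123, or 2.63% of all union regions. They were 13.4% (13.1 to 13.7) of the GFP mock regions and 12.9% (12.6 to 13.2) of the Cre mock regions that were absent from both doxycycline lists. The DOX-only regions were thus fewer than the mock-only regions. No test between the sets was made.

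Most DOX-only regions were LINE-1 sequence. LINE-1 copies were identified by alignment of the genome to 3 full-length elements. These elements were taken from within 7 kb of DOX-only regions, so they may favour LINE-1 families found there. A region was classed as LINE-1 when at least 50% of its bases were aligned. This held for 3172 of the 4474 DOX-only regions (70.9%, 69.5 to 72.2). It held for 9.29% (8.51 to 10.1) of the mock-only regions, 62.6% (61.9 to 63.3) of the 17359 regions present in all 4 lists and 34.3% of all union regions. By length, 76.4% of the DOX-only bases and 8.42% of the mock-only bases were aligned to LINE-1, against 9.28% of the genome. The classes were well separated, as 1262 DOX-only regions had no LINE-1 base, 40 had some but under 50%, and 3056 had at least 90%.

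The LINE-1 share moved with the presence of a Cre DOX peak. Over the 15 possible patterns of the 4 lists, it lay between 47.1% and 70.9% in the 8 patterns with a Cre DOX peak and between 7.88% and 19.6% in the 7 patterns without. The DOX-only pattern had the highest share of all 15. Regions in GFP DOX alone had a share of 19.6% and regions in Cre DOX alone had a share of 47.1%. Among the patterns with a Cre DOX peak, those that also held a GFP DOX peak had shares of 62.6% to 70.9%, and those that did not had 47.1% to 53.8%. Of all peaks in each list, 53.1% were LINE-1 in Cre DOX, 49.5% in GFP DOX, 37.6% in GFP mock and 36.9% in Cre mock. Both doxycycline lists were thus richer in LINE-1 peaks than both mock lists. With 1 library in each condition, the treatment and the library cannot be told apart.

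**Figure D1:**
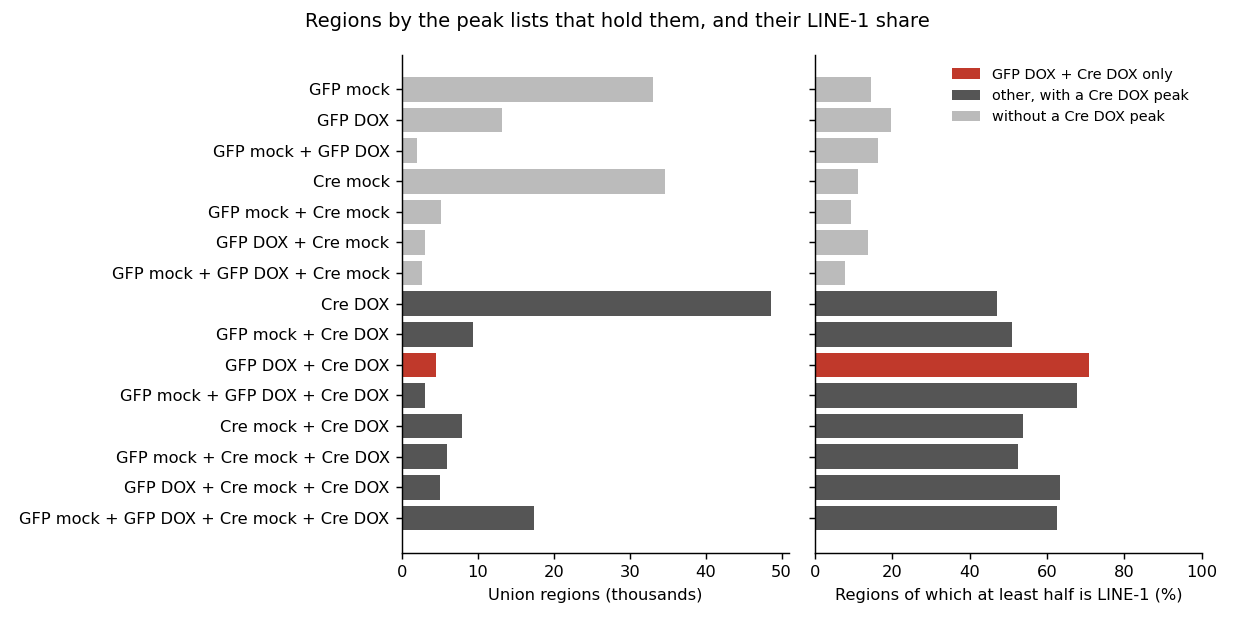
Left, the number of union regions for each of the 15 combinations of the 4 peak lists. Right, the percentage of these regions that were at least 50% LINE-1. The bar of the DOX-only regions (4474 regions, 70.9% LINE-1) is red, other combinations with a Cre DOX peak are dark grey, and combinations without one are light grey and none exceeds 19.6%.

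The LINE-1 parts of the DOX-only regions were not spread evenly along the element. The coverage was expressed as the percentage of all genomic LINE-1 bases at a given position of the element that lay in DOX-only regions. It was highest in the 200 bases before the start of ORF2, the end of ORF1, at 2.57%. It fell to 0.711% in the bin from 4000 to 4200 bases after the start of ORF2, beyond its stop codon, a ratio of 3.62. The regions present in all 4 lists had their highest coverage, 20.9%, between 400 and 600 bases into ORF2, and 5.25% at 4000 to 4200. The mock-only regions had the reverse profile, with the highest coverage, 0.226%, at 4000 to 4200 bases. The 5′ rise of the DOX-only regions was therefore shared with the regions in all 4 lists and not with the mock-only regions.

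The centre of the region gave the same picture for single regions. Of the 3159 LINE-1 regions with an aligned centre, 695 (22.0%, 20.6 to 23.5) were centred in ORF1, against 13.2% of genomic LINE-1 bases. A further 1067 (33.8%, 32.1 to 35.5) were centred in the 5′ portion of ORF2, up to base 1923, against 23.2% of genomic LINE-1 bases. The 3′ portion of ORF2 held 30.4% of centres and 35.0% of the genomic bases, and sequence downstream of ORF2 held 13.2% and 24.0%. Upstream of ORF1, where the promoter of the element lies, were 20 centres (0.633%, 0.387 to 0.976), against 4.59% of the genomic bases. The median identity to the nearest reference element was 89.5% for LINE-1 bases of DOX-only regions, 88.5% for mock-only regions, 88.0% for regions in all 4 lists and 91.0% for the genome. The DOX-only regions covered 1.25% of all genomic LINE-1 bases.

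**Figure D2:**
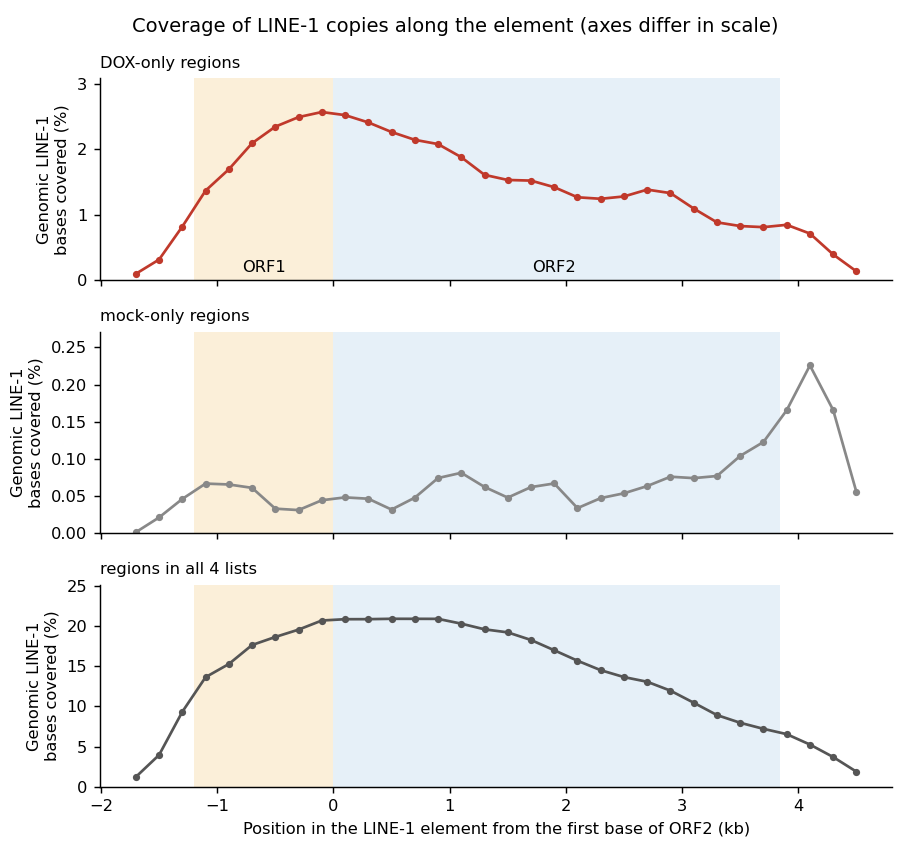
Percentage of genomic LINE-1 bases covered by DOX-only regions (top), mock-only regions (middle) and regions in all 4 lists (bottom), by position along the element in kb from the first base of ORF2, in bins of 200 bases. Coverage by DOX-only regions peaks at 2.57% at the junction of ORF1 (orange) and ORF2 (blue), whereas coverage by mock-only regions peaks at 0.226% downstream of ORF2. The vertical axes differ in scale.

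Sequence was shared widely among the DOX-only regions. When the central 300 bases of every region were aligned to those of all others, 3577 of the 4474 (79.95%, 78.7 to 81.1) shared at least 150 bases at 80% identity or more with another DOX-only region. Of these, 3478 were linked in a single group, and 3163 of that group were LINE-1. Among the DOX-only regions that were not LINE-1, 410 of 1302 (31.5%, 29.0 to 34.1) shared sequence with another member. The mock-only regions shared sequence with each other in 1463 of 5123 cases (28.6%, 27.3 to 29.8). The members are therefore not independent observations, and intervals on their shares treat them as if they were. Lower-case bases of the reference mark repeats of any kind, and the median DOX-only region was 98.4% masked. The median was 32.4% in the mock-only regions, 96.3% in the regions in all 4 lists and 74.6% over all union regions.

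The peaks that make up the DOX-only regions were of ordinary strength for their lists. Peak scores are −log10 q-values multiplied by 10, and the fold enrichment is relative to the local background. Scores in GFP DOX ranged from 10 to 103 with a median of 16, and the median of the whole list was 17. Scores in Cre DOX ranged from 10 to 97 with a median of 18, and the median of the whole list was also 18. The median fold enrichment was 3.48 in GFP DOX and 3.12 in Cre DOX. The study kept only peaks whose scores were in the top decile of their list. Its methods name narrow peaks whereas the deposited lists are of broad peaks, so the cut-offs used here, a score of at least 28 in GFP DOX and 31 in Cre DOX, are those of the deposited lists. In the former list 241 members (5.39%) had such a peak, in the latter 361 (8.07%), and in both 41 (0.916%, 0.658 to 1.24). Regions in all 4 lists were stronger, with median scores of 20 and 26. Regions in GFP DOX alone had a median of 15 and regions in Cre DOX alone had 16.

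Strength and position differed between the 2 peaks of a region. The fold enrichments in GFP DOX and Cre DOX were weakly related across the 4474 regions (Pearson r = 0.192, Spearman rho = 0.140), which describes regions of the same 2 libraries and not replicates. Over the 17359 regions in all 4 lists the corresponding values were 0.654 and 0.307. The fold enrichment was higher in GFP DOX in 3498 regions, although the lists are not normalised to each other. The medians of the whole lists, 3.53 in GFP DOX and 3.12 in Cre DOX, differed in the same direction. LINE-1 regions had median scores of 16 in GFP DOX and 19 in Cre DOX, and the others had 15 and 16. In 4315 regions (96.4%) there was exactly 1 peak of each list. The peaks of Cre DOX were wider, with a median of 617 bp against 310 bp in GFP DOX, and in 2101 regions (47.0%) the GFP DOX peak lay entirely within the Cre DOX peak. The peaks overlapped by at least 50% of the shorter one in 3726 regions (83.3%). The merged regions had a median width of 740 bp, against 433 bp for mock-only regions and 2159 bp for regions in all 4 lists.

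**Figure D3:**
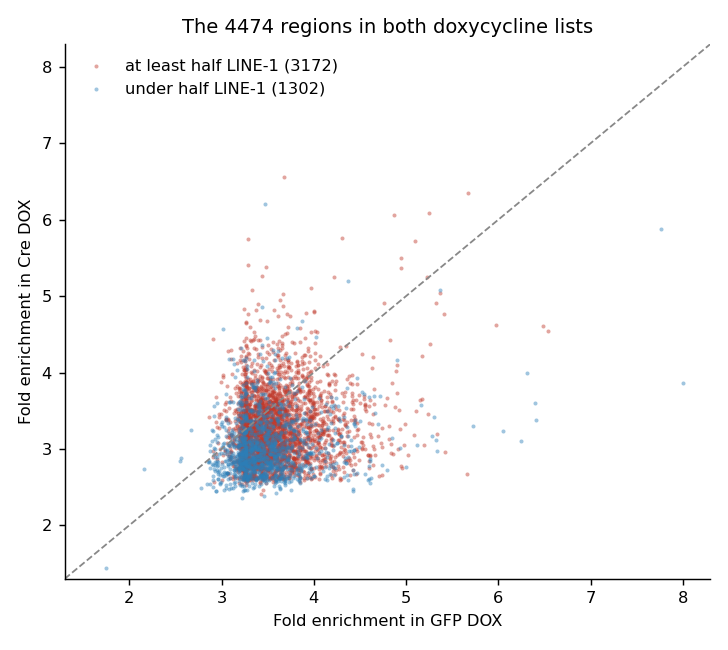
Fold enrichment of each DOX-only region in GFP DOX (horizontal) and in Cre DOX (vertical), with 3172 LINE-1 regions in red and 1302 other regions in blue and the line of equal values dashed. Most regions lie close to the medians of 3.48 and 3.12, and few are high in both lists.

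Many DOX-only regions lay a short distance from a mock peak. The nearest mock peak lay a median of 1462 bp from a DOX-only region. It was within 1 kb for 1803 regions (40.3%, 38.9 to 41.8) and within 10 kb for 3671 (82.1%, 80.9 to 83.2). For mock-only regions the nearest doxycycline peak lay at a median of 4660 bp, and within 1 kb for 24.8% (23.7 to 26.0). The distances of these sets are to different peaks, and those of all union regions were not measured. Of the 29793 regions with a peak in both doxycycline lists, 17359 were kept out by both mock lists, 2998 by GFP mock only and 4962 by Cre mock only. The 3 with the lowest summed scores were on chromosome 1 (87472576 to 87472912, scores 10 and 10, in the promoter and over an exon of *Snorc*), on chromosome X (48936699 to 48937078, 10 and 10, LINE-1) and on chromosome 3 (62302187 to 62302976, 11 in GFP DOX and 10 in Cre DOX, LINE-1). The 3 regions excluded by the weakest mock peak had higher summed doxycycline scores than these 3 members. On chromosome 13 (17627617 to 17629074) the scores were 20 in GFP DOX and 13 in Cre DOX, and a Cre mock peak with a score of 10 kept the region out. On chromosome 17 (46626779 to 46627421) they were 11 and 19, with a GFP mock peak of score 10. On chromosome 1 (16921796 to 16923940) they were 21 and 27, with a Cre mock peak of score 11.

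The 10 best-ranked regions were all intergenic, all more than 50% masked and without a predicted G4, and 8 were LINE-1. Their scores were 48 to 103 in GFP DOX and 47 to 91 in Cre DOX. The first, on chromosome 9 (88508856 to 88509160), had scores of 103 in GFP DOX (7.76-fold) and 80 in Cre DOX (5.87-fold), and the nearest mock peak was 14.8 kb away. It lies 26.3 kb from *Syncrip*, which encodes an RNA-binding protein. The second, on chromosome 10 (3114468 to 3115312), had scores of 70 and 71 but fold enrichments of only 3.53 and 3.33, and mock peaks lay 0.640 kb away in GFP mock and 0.579 kb in Cre mock. Among the 8 LINE-1 regions, that on chromosome 17 (13436235 to 13437067) had scores of 54 in GFP DOX and 85 in Cre DOX. The region on chromosome 18 (29555406 to 29555745) had 51 and 86 and was the farthest of the 10 from any mock peak, at 105 kb. The region on chromosome 9 (34292687 to 34293692) had 69 and 47. The region on chromosome 7 (11647013 to 11647250), 17.2 kb from the vomeronasal receptor gene *Vmn1r72*, had 52 and 83. The region on chromosome 12 (104204197 to 104204521), 10.0 kb from the serpin gene *Serpina3f*, had 48 and 91. The remaining 3 were those ranked 3 and 4 above, with scores of 56 in GFP DOX and 57 in Cre DOX and of 55 and 65, and a region on chromosome 4 (69708237 to 69708459) with 53 in both.

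The widest members were weaker. The widest, 4570 bp, was in an intron of the non-coding gene *Gm30835* on chromosome 5 (7881915 to 7886484), with scores of 14 in GFP DOX and 24 in Cre DOX. It was 92.4% masked but had no base aligned to LINE-1. The next, on chromosome X (150212027 to 150216306, scores 19 and 18) and chromosome 1 (26126633 to 26130875, scores 14 and 21), were intergenic LINE-1 regions of 4280 bp and 4243 bp. In these, mock peaks lay 0.058 kb and 0.131 kb from the region.

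Base composition followed the LINE-1 content. The median GC content of the DOX-only regions was 38.9% (95% interval of the median 38.8 to 39.2), against 50.0% (49.8 to 50.3) in mock-only regions, 39.5% in regions in all 4 lists and 44.9% over all union regions. It was 37.9% in LINE-1 members and 47.1% (46.8 to 47.5) in the others. A predicted G4 (G4Hunter score of at least 1.5 over 25 bases, on either strand) was present in 756 DOX-only regions (16.9%, 15.8 to 18.03), against 50.9% (49.6 to 52.3) of mock-only regions and 44.2% of regions in all 4 lists. Longer regions have more room for a match, so the central 300 bases were also compared. There, 8.54% (7.74 to 9.40) of DOX-only, 41.8% (40.4 to 43.1) of mock-only and 15.5% (15.0 to 16.1) of regions in all 4 lists held a predicted G4, and 21.5% of all union regions did. The DOX-only share was 1.83% (1.39 to 2.36) in LINE-1 members and 24.9% (22.6 to 27.3) in the others. Both values were below the share of the mock-only regions, which were not split by LINE-1. The value of the other members was above the shares of regions in all 4 lists and of all union regions.

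Simple sequence repeats were counted in the same way. A run of 6 GA dinucleotides on either strand was found in the central 300 bases of 20 DOX-only regions (0.447%, 0.273 to 0.690), of 0.737% (0.616 to 0.876) of regions in all 4 lists, of 3.40% (2.92 to 3.93) of mock-only regions and of 2.07% of all union regions. A run of 6 CA dinucleotides was found in 2.75% (2.29 to 3.27) of DOX-only and 4.20% (3.66 to 4.78) of mock-only regions, in 1.47% (1.295 to 1.66) of regions in all 4 lists and in 4.49% of all union regions. Of the 123 DOX-only regions with such a CA run, 120 were not LINE-1, and the *Wdhd1* promoter shown above is one. A pair of telomeric TTAGGG repeats was found in 1 DOX-only region and in no mock-only region, in 0.300% (0.224 to 0.393) of regions in all 4 lists and in 0.0477% of all union regions. These matches describe letters within a window only.

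**Figure D4:**
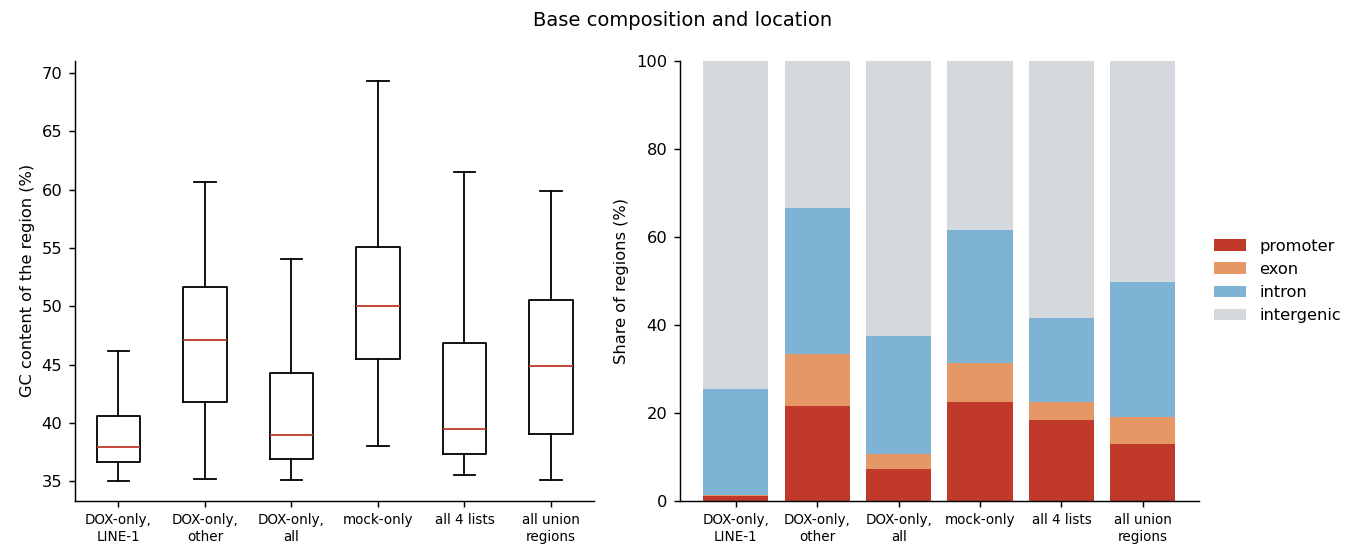
Left, GC content (%) of DOX-only regions, split into LINE-1 and other members and together, and of mock-only regions, regions in all 4 lists and all union regions (line, median; box, 25th to 75th percentile; whiskers, 5th to 95th percentile). Right, the share of the same sets in promoters, exons, introns and intergenic sequence. The LINE-1 members are the lowest in GC content (median 37.9%) and 74.7% of them are intergenic, while the other members have a median of 47.1% and 21.6% lie in promoters.

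Most DOX-only regions lay outside genes. Assigned in the order promoter, exon, intron and intergenic, 318 (7.11%, 6.37 to 7.90) overlapped a promoter, 159 (3.55%) an exon outside promoters, 1195 (26.7%) an intron and 2802 (62.6%, 61.2 to 64.0) were intergenic. Of the mock-only regions 22.6% (21.4 to 23.7) were in promoters and 38.4% (37.0 to 39.7) were intergenic, and of all union regions 12.9% and 50.2%. Of the regions in all 4 lists 18.4% (17.8 to 18.98) were in promoters and 58.3% (57.6 to 59.1) were intergenic. The LINE-1 members were in promoters in 1.17% (0.823 to 1.60) and intergenic in 74.7% of cases. Of the other members 21.6% (19.4 to 23.9) were in promoters, a value within the interval of the mock-only regions. Promoter members had a median GC content of 50.4%, a median of 15.9% masked bases and a predicted G4 within the central 300 bases in 37.1% (31.8 to 42.7). For the 1156 mock-only regions in promoters this last share was 56.8%, and for all union regions in promoters it was 41.0%.

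Promoters of protein-coding genes held 246 DOX-only regions. They belonged to 261 of 21951 protein-coding genes (1.19%). The 318 regions in promoters of any kind belonged to 373 of 55450 genes (0.673%). Of the 12 best-ranked regions in these promoters, 8 held a predicted G4 and 2 were LINE-1. Over the whole region, a predicted G4 was present in 183 of all 318 promoter members (57.5%, 51.9 to 63.04). The first lay upstream of *Hint1*, which encodes a nucleotide hydrolase of the histidine triad family, on chromosome 11 (54865316 to 54865659). Its scores were 29 in GFP DOX and 59 in Cre DOX, and a GFP mock peak lay 0.262 kb away. The second was at the predicted gene *Gm13283* on chromosome 4 (88759667 to 88759887), with the reverse order of scores, 89 in GFP DOX and 31 in Cre DOX. The region in *Dok5*, which encodes a docking protein of receptor tyrosine kinases, was on chromosome 2 (170731753 to 170731977) with scores of 28 and 29, and no mock peak lay within 21.6 kb. *Hint1* and *Gm13283* were the only 2 of these 12 promoters with a top-decile peak in both lists.

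The remaining 9 promoters had lower scores in at least 1 list. *Wdhd1*, which encodes the replisome protein AND-1, had scores of 33 in GFP DOX and 28 in Cre DOX on chromosome 14 (47256881 to 47257368), within the gene. *Srcap*, which encodes a chromatin-remodelling ATPase, had 27 and 24 on chromosome 7 (127513395 to 127513629), a region that also lies in the promoter of the non-coding gene *1700008J07Rik*. *Top2b*, which encodes DNA topoisomerase IIβ, had 25 and 24 on chromosome 14 (16365256 to 16366030), over an exon and with a GC content of 70.5%. *Rps13*, a ribosomal protein gene, had scores of 22 in GFP DOX and 26 in Cre DOX on chromosome 7 (116333831 to 116334525), a region shared with the promoter of the non-coding gene *Gm44777*. A Cre mock peak lay 0.003 kb from that region. *Chil1* (a chitinase-like protein, chromosome 1, 134182496 to 134182727) had 35 and 26. *Zer1* (a substrate receptor of a ubiquitin ligase, chromosome 2, 30110441 to 30110655) had 24 in both lists. *Rnf220* (a ubiquitin ligase, chromosome 4, 117494698 to 117494910) had 27 and 22. *Vmn2r114*, a vomeronasal receptor gene (chromosome 17, 23312923 to 23313745, 25 and 26), and *1700019D03Rik* (chromosome 1, 52993205 to 52994054, 20 and 32) were the LINE-1 cases. The best-ranked promoter of a long non-coding gene, that of *Gm28268* on chromosome X (21752039 to 21752756, 25 and 37), was also LINE-1.

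The fixed gene lists held few DOX-only regions. Among 26 R-loop and G4 factors, the promoter of *Rnaseh2a* held one. It encodes the catalytic subunit of RNase H2, which like RNaseH1 cleaves RNA in hybrids with DNA. The region, on chromosome 8 (84957538 to 84958847), had scores of 17 in GFP DOX and 18 in Cre DOX. Among 22 genes of the mitochondrial and integrated stress response, *Nupr1*, a stress-induced chromatin protein gene, had one on chromosome 7 (126624937 to 126626029, 13 and 19). Of 67 replication-dependent histone genes, *Hist2h2aa2* and *Hist2h3c2* shared one on chromosome 3 (96238987 to 96239797, 27 and 21), and a Cre mock peak lay 0.479 kb away. Of 84 ribosomal protein genes, 2 had one, namely *Rps13* and *Rps15* (chromosome 10, 80291322 to 80291789, 17 in both lists). Of 28 collagen and matrix genes, *Timp2*, a metalloproteinase inhibitor gene, had one on chromosome 11 (118356427 to 118358018, 16 and 37). Of 27 genes of actin, tubulin and motility, *Cnn2*, which encodes a calponin, had one on chromosome 10 (79988583 to 79989379, 18 and 21). None lay in the promoters of 20 p53 targets, 21 immediate early genes, 30 DNA replication genes, 14 telomere factors or 11 abundant nuclear non-coding RNAs. Small nuclear and nucleolar RNA genes had one in 12 of 2941 cases (0.408%). With a background of 1.19% of protein-coding and 0.673% of all genes, 1 or 2 genes in lists of this size are not a result about the lists.

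Over gene bodies, 1191 of 21951 protein-coding genes (5.43%) and 1512 of 55450 genes (2.73%) overlapped a DOX-only region. The genes with the most regions were large. *Gm20388*, an annotated gene of 4435 kb on chromosome 8 that spans other genes, held 7, none of them LINE-1. *Cntnap2*, a neurexin family gene of 2245 kb on chromosome 6, held 6, all LINE-1. *Gm37013*, *Gm37388* and *Gm42416*, overlapping annotations on chromosome 18, held the same number, 6, of which 4 were LINE-1. *Naaladl2* on chromosome 3 held 5, all LINE-1, and *Ccdc7a* and *Ccser1* were the first by name of 9 genes with 4. Of the 230 protein-coding genes of at least 500 kb, 90 (39.1%) held at least 1 DOX-only region. Per length, however, these genes held 0.894 DOX-only regions per Mb, against 1.29 for all protein-coding genes and 1.69 for the whole genome. In them 79.0% of the regions were LINE-1, against 43.4% in all protein-coding genes. In the fixed lists, gene bodies held a region in 3 of 30 DNA replication genes (*Mcm3*, *Mcm6* and *Rfc2*), 3 of 27 genes of actin, tubulin and motility (*Cnn2*, *Myh9* and *Tpm2*), 2 of 22 stress response genes (*Nupr1* and *Slc7a11*) and 1 of 26 R-loop and G4 factors (*Rnaseh2a*). They held one in 2 of 67 histone genes and 1 of 84 ribosomal protein genes, and in none of the p53 targets, immediate early genes, matrix genes, telomere factors, abundant nuclear non-coding RNAs or small nuclear and nucleolar RNAs. Against 5.43% of protein-coding genes, counts this small are not a result about the lists. Of the 563 intronic LINE-1 regions with a host gene on a single strand, 176 (31.3%, 27.5 to 35.3) had the element in the direction of the gene, against 36.0% of LINE-1 bases within protein-coding genes.

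Chromosome X had the highest density of DOX-only regions. It held 489 regions (10.9% of all, 10.0 to 11.9), or 2.99 per Mb, and 429 of these (87.7%) were LINE-1. Chromosome X also held 11.5% (11.1 to 12.03) of the regions in all 4 lists, against 7.33% of all union regions and 3.16% (2.70 to 3.68) of the mock-only regions, so the high share was common to the DOX-only regions and those in all 4 lists. Chromosome X was also the richest in LINE-1, at 18.3% of its bases. Among the autosomes the density was highest on chromosome 3, at 2.21 per Mb, and lowest on chromosome 12, at 1.14 per Mb. Chromosome Y held 1 region and 27 union regions in all, and the mitochondrial genome held no DOX-only region and 3 union regions. For mock-only regions the density on chromosome X was 0.991 per Mb, below that of every autosome, and the highest was 4.08 per Mb, on chromosome 11. Across the 19 autosomes and chromosome X, the density of DOX-only regions and the LINE-1 content had a Pearson r of 0.629 and a Spearman rho of 0.260. Without chromosome X these were 0.113 and 0.137, so the relation rests on that chromosome. These values describe 20 chromosomes of the same libraries.

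**Figure D5:**
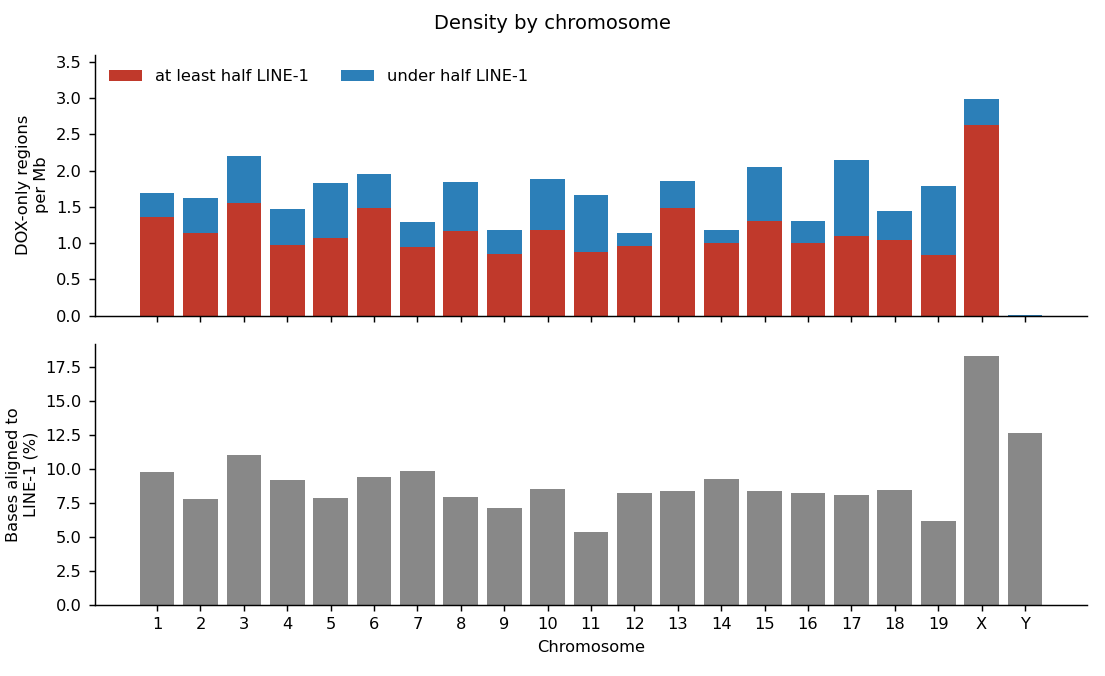
Top, DOX-only regions per Mb of sequenced bases on each chromosome, divided into LINE-1 (red) and other regions (blue). Bottom, the percentage of bases of each chromosome aligned to LINE-1. Chromosome X is the highest in both panels, with 2.99 regions per Mb and 18.3% LINE-1, and the autosomes range from 1.14 to 2.21 regions per Mb without following their LINE-1 content.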

How the data were processed

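The 4 deposited DRIP-seq peak lists were used, 1 per condition. Samples were grouped by virus and treatment as their labels state. The authors ran release 1.2.1 of nf-core/chipseq, which aligns reads with BWA to mm10 and calls peaks with MACS2 in each library. Broad peaks merge nearby signal, which widens regions and favours overlap. The deposited score is 10 times the deposited −log10 q-value rounded down (99.996% of peaks). The deposited fold enrichment is a ratio to local background. These values are not normalised between the libraries, and the −log10 p-values served only to break ties. The lists hold no depths, so precision is limited by the single library of each condition.

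Union regions were formed from peaks that overlapped by at least 1 bp. Sequence and repeat masking came from GRCm38.p6, the same build, and genes from GENCODE M21. LINE-1 references were full-length copies within 7 kb of members, recognised by their reading frames (an ORF1 of 330 to 400 codons followed within 120 bp by a complete ORF2) and aligned to the genome with blastn 2.17.0 (word size 20, identity of at least 80%, alignments of at least 100 bp), and positions along the element were read from the aligned bases. Because they were taken near members, they may favour LINE-1 families found there. G4s were predicted with G4Hunter. Tables were handled with pandas 2.3.3 and intervals with scipy 1.17.1. The steps were checked on simulated data. Named regions were the 10 best ranked, the 12 best ranked in protein-coding and the 3 in long non-coding promoters, the 3 widest, the 3 weakest and the 3 just outside. Sequence windows came from the best-ranked regions off chromosome 18. Named genes were the 8 with most members and those of the fixed lists with a member in the promoter. One gene that this rule names is not reported here. The members, lists and comparisons were chosen with earlier results of these data known. Alternatives covered peak strength, list size, distance to mock peaks, overlap, repeats, promoter width and G4 definition.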

Additional observations from a re-analysis of the deposited data

How the results depend on the processing

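The 9 values (the number of members, the overlap as a share of each doxycycline list outside the mock lists, and 6 properties of the members) were recomputed in 103 ways. In 29 of these the value stayed within the interval of the reported value, or within 1.5 times for the number. With top-decile peaks in every list, the number of members was 450, the share of GFP DOX regions 14.6%, the share of Cre DOX regions 5.56%, promoter members 9.11%, intergenic members 68.9%, predicted G4s 30.7%, median masked share 97.7% and top-decile members 100%. With peaks limited to −log10 q of 2 or more, the number of members was 1598, the share of GFP DOX regions 24.6%, the share of Cre DOX regions 6.58%, intergenic members 68%, median GC content 38.1% and top-decile members 5.76%. With the 60219 best peaks of every list, the share of GFP DOX regions was 19.6%, the share of Cre DOX regions 15.6%, intergenic members 66.2%, median GC content 38.3% and top-decile members 1.34%. With no mock peak within 1 kb, the number of members was 2671, the share of GFP DOX regions 24.5%, the share of Cre DOX regions 6.97%, promoter members 4.9%, intergenic members 65.4% and median masked share 98.7%. With none within 10 kb, the number of members was 803, the share of GFP DOX regions 24.3%, the share of Cre DOX regions 5.73%, promoter members 3.99%, median GC content 38.5%, predicted G4s 12.8%, median masked share 99% and top-decile members 1.49%. With peaks overlapping by at least 50% of the shorter, the share of GFP DOX regions was 21.2%, the share of Cre DOX regions 7.03%, promoter members 6.27% and intergenic members 64.1%. With GFP DOX peaks taken singly, the number of members was 9124, the share of GFP DOX regions 41%, the share of Cre DOX regions 9.48%, promoter members 5.27%, intergenic members 66.9%, median GC content 38.3%, predicted G4s 6.21% and median masked share 100%. With regions at most 50% masked, the number of members was 782, the share of GFP DOX regions 8.84%, the share of Cre DOX regions 5.92%, promoter members 32.6%, intergenic members 16.6%, median GC content 49.9%, predicted G4s 51%, median masked share 15.2% and top-decile members 0.639%. On autosomes alone, the share of GFP DOX regions was 24% and intergenic members 60.3%. Without LINE-1 regions, an alternative chosen after seeing the data, the number of members was 1302, the share of GFP DOX regions 11%, the share of Cre DOX regions 4.82%, promoter members 21.6%, intergenic members 33.3%, median GC content 47.1%, predicted G4s 40.02% and median masked share 34.9%. Promoter members were 4.87% with 500 bp either side, 11.2% with 2 kb, 5.54% by the midpoint and 5.50% with protein-coding genes only, when intergenic members were 69.2%. Predicted G4s were 8.94% at a score of at least 2, 8.25% by a regular expression and 8.54% in the central 300 bases, where the median GC content was 38.7% and the median masked share 100%.

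The number of members ranged from 450 to 9124 and the share of members with a top-decile peak in both lists from 0.639% to 100%, the latter by construction where every list was limited to its top decile. Limiting regions to at most 50% masked fixes a low masked share by construction, and the promoter and intergenic shares, GC content and predicted G4s moved far with it. Equal numbers of peaks left the number of members close to that reported (4541) but brought the shares of the 2 lists together. Single libraries, unknown depth and repeats that reads may not resolve limit all of these values. No paired analysis was possible because the conditions share only 1 replicate number. The LINE-1 share of peaks was higher with doxycycline than with mock treatment within each genotype (49.5% against 37.6% in GFP, 53.1% against 36.9% in Cre), a description of single libraries.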
